A study of Homo sapiens with 30 samples.

Results

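Tight junction genes were followed in 3 established human cancer lines kept in acidic or in neutral medium. The 10 genes were the claudins CLDN1, CLDN3, CLDN4 and CLDN7, the MARVEL-domain proteins OCLN (occludin) and MARVELD3, LSR (lipolysis-stimulated lipoprotein receptor, also called angulin), F11R (junctional adhesion molecule A) and the cytoplasmic scaffolds TJP1 and TJP3 (zonula occludens proteins). They were chosen by symbol, and each of the 10 was found among the 38122 Ensembl genes of the table.

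Tight junctions close the gap between neighbouring epithelial cells just below their apical surface. Claudins polymerise into strands in both membranes and set which ions and small solutes pass, occludin and MARVELD3 are built into the same strands, and LSR marks the corners where several cells meet and brings tricellulin there. F11R is an immunoglobulin-like adhesion protein that helps to assemble the junction, and the zonula occludens scaffolds tie claudins and occludin to the actin cytoskeleton.

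RNA was sequenced from FaDu (hypopharyngeal squamous carcinoma), HCT116 (colorectal carcinoma) and SiHa (cervical squamous carcinoma). Each line was grown at pH 6.5, where cells had been held for at least 1 month, or at pH 7.4, and 5 libraries were labelled for each of the 6 groups. The labels name no altered gene and no drug, and both arms shared a medium with 10% serum, 2 mM glutamine, 10 mM glucose and the buffers PIPES and HEPES at 25 mM each, at 5% CO2 and 37 °C. Nothing in the labels tells whether libraries of a group were separate cultures, so every p-value below measures the spread between these libraries, which may be technical. All values are read counts scaled by the authors for library depth, called normalised counts here. Libraries held 21.02 to 55.7 M reads, and 3 reads, the most that a count of 0 allows, stood for 1.90 to 5.01 normalised counts.

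9 of the 30 libraries did not match their labels or stood apart and were left out of the main comparisons. In FaDu pH 7.4 replicates 2 to 5, genes restricted to HCT116 reached 30.6 to 80.4% of their level in HCT116. In HCT116 pH 6.5 replicates 5 to 7, genes restricted to SiHa reached 37.5 to 104% of their level in SiHa, and genes restricted to HCT116 were at 0.581 to 58.8%. SiHa pH 7.4 replicates 6 and 7 carried VIM, the mesenchymal intermediate filament vimentin, at 2817 and 2863 normalised counts, against 2.04, 28.4 and 165 in replicates 1, 4 and 5. The other 21 libraries held genes of another line at no more than 0.0708%. Restricted genes were picked by their levels in FaDu at pH 6.5, HCT116 at pH 7.4 and SiHa at pH 6.5. Low values of another line's genes in those groups were therefore fixed by the choice. In the kept libraries of the other groups, which the choice did not use, genes of another line were at no more than 0.0465%. Among the kept libraries, replicate 1 was the library far from its group in each of the 7 of 30 sets of values (a gene in a group of 5) where there was such a library. The main comparisons set 5 FaDu libraries at pH 6.5 against 1 at pH 7.4, 2 HCT116 libraries at pH 6.5 against 5 at pH 7.4, and 5 SiHa libraries at pH 6.5 against 3 at pH 7.4. Of 8 colon markers, 3 reached 10 normalised counts in each HCT116 library at pH 6.5 and 4 to 6 did at pH 7.4, and of 8 squamous markers, 8 did in every FaDu library at both pH values, 5 to 7 in SiHa at pH 6.5 and 7 in SiHa at pH 7.4, and 6 to 7 in HCT116 at pH 6.5 and 4 to 5 at pH 7.4, so the squamous count did not separate HCT116 from SiHa. The summed level of 6 immune markers stayed at or below 150.4 in every kept library. That of 5 endothelial markers did not stay low in FaDu. At pH 6.5 it was 423 in replicate 1 and 1219 to 2436 in replicates 2 to 5, against 288 at pH 7.4. In SiHa it was 136 to 576 at pH 6.5 and 126 to 253 at pH 7.4. In HCT116 it was 217 to 276 at pH 6.5 and 160 to 309 at pH 7.4. What lies behind the FaDu values was not tested.

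The base sequence around the transcription start was read for the 10 genes, and windows are shown for LSR, OCLN and TJP3, which were called lower in SiHa. RefSeq (GRCh38.p14) gave 14 start windows of 250 bases before to 50 after a start for 8 of the 10 genes, all but MARVELD3 and F11R. The E-box CACCTG, which ZEB and SNAI proteins bind, was searched on both strands. It was present in 6 of the 14 windows, which belong to 5 genes (CLDN3, CLDN7, OCLN, TJP1 and TJP3), and in 20.6% of all 35116 start windows. AACCGGTT, the site of grainyhead-like factors, was in 0 of the 14 windows and in 0.134% of all. A match in a window is a description of the sequence and does not show that a factor binds there. 3 windows on the plus strand are shown 5′ to 3′ with the E-box in capitals, written CAGGTG where it reads on the other strand.
LSR chr19:35248752-35249051: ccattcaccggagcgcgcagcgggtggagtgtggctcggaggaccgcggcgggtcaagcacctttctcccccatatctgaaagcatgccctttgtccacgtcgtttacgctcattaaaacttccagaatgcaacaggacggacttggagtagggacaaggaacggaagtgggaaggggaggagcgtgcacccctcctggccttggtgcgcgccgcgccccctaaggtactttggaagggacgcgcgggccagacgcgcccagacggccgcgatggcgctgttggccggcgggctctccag
OCLN chr5:69492297-69492596: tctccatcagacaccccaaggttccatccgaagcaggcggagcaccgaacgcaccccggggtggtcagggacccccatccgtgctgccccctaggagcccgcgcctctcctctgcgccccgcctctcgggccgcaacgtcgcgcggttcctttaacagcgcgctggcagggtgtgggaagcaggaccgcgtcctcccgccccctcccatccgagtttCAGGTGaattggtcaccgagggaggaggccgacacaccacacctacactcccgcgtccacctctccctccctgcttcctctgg
TJP3 chr19:3721487-3721786: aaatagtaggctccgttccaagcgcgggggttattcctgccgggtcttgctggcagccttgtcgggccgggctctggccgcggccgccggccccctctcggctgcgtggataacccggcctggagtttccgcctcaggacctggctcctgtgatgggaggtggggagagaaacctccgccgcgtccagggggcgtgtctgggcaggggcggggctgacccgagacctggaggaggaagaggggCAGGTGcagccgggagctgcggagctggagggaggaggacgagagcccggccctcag
The LSR window held no CACCTG. In the OCLN window shown the E-box began at base -33 from the start, and in the TJP3 window shown at base -7. The other TJP3 window held 0 copies of CACCTG.

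At pH 6.5, SiHa cells held less RNA of LSR, MARVELD3, OCLN, TJP3 and F11R, and none of the 10 genes was called higher. With limma on log2(normalised count + 1) at a Benjamini-Hochberg adjusted p under 0.05 over all genes, 5 of the 9 members that passed the filter of a mean of 10 were called lower, against 16.2% of all 18555 genes tested, and 0 were called higher, against 15.0%. At an unadjusted limma p under 0.05 the count higher was 1, by edgeR it was 0, and by DESeq2 1 (CLDN7). The count lower at these rules was 6, 5 and 6 in turn. The shares over all genes at these rules are not given here, so these counts are not read against them. The median log2 change was -0.62 over these 9 genes and -0.01 over all genes. In bulk RNA, fewer cells that express a gene and less RNA per cell cannot be told apart.

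LSR, the receptor that defines tricellular contacts, had 394, 200.1, 204, 167 and 134 normalised counts in SiHa at pH 6.5 (replicates 1, 4, 5, 6 and 7), against 3262, 2826 and 3526 at pH 7.4 (replicates 1, 4 and 5). The groups did not overlap, and the highest value at pH 6.5 was that of replicate 1. The change was -3.96 ± 0.27 on the log2 scale (SE, adjusted p = 1.46e-05), a level 15.5-fold lower at pH 6.5 than at pH 7.4. MARVELD3, a strand protein of the occludin family, had 55.3, 37.8, 41.2, 40.5 and 40.1 at pH 6.5 and 153, 182 and 247 at pH 7.4, again without overlap. It fell by 2.13 ± 0.21 on the log2 scale (adjusted p = 0.000108), 4.38-fold.

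OCLN, the strand protein occludin, had 106, 79.8, 80.7, 75.8 and 76.9 normalised counts in SiHa at pH 6.5, against 190.4, 184 and 206 at pH 7.4. All pH 6.5 libraries lay below all pH 7.4 libraries, and OCLN fell by 1.21 ± 0.17 on the log2 scale (adjusted p = 0.0006). The scaffold TJP3 had 234, 139, 216, 254 and 320.2 at pH 6.5, against 634, 397 and 546 at pH 7.4, without overlap, and fell by 1.20 ± 0.25 (adjusted p = 0.00469). The adhesion protein F11R had 1759, 1199, 1206, 1257 and 1143 at pH 6.5, against 1901, 1893 and 2189 at pH 7.4. Replicate 1 was the highest of the pH 6.5 libraries and the groups did not overlap. F11R fell by 0.62 ± 0.14 (adjusted p = 0.00731). 5 of the 9 tested genes did not overlap between the groups with pH 6.5 the lower, against 18.4% of all genes.

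The claudins of SiHa gave no call. CLDN1, a main barrier claudin of squamous epithelium, had 879, 1198, 769, 765 and 786 normalised counts at pH 6.5, against 2279, 895 and 1148 at pH 7.4, and the groups overlapped (log2 change -0.62 ± 0.26, adjusted p = 0.0921, and 0.0261 by DESeq2). CLDN7, a claudin that also lies along the lateral membrane, had 102, 40.6, 64.6, 56.0 and 76.9 at pH 6.5 and 37.7, 36.9 and 44.0 at pH 7.4 (0.71 ± 0.28, adjusted p = 0.0772). CLDN4, a receptor of Clostridium perfringens enterotoxin, averaged 68.0 ± 18.0 at pH 6.5 and 66.9 ± 23.3 at pH 7.4 (SD, n = 5 and 3, log2 change 0.04 ± 0.28, adjusted p = 0.932). CLDN3, the related enterotoxin receptor, did not exceed 2.58 in any library at pH 6.5 or 4.51 at pH 7.4, did not pass the filter, and was not tested. The scaffold TJP1 averaged 4144 ± 522 at pH 6.5 and 3597 ± 506 at pH 7.4 (0.20 ± 0.12, adjusted p = 0.232).

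The SiHa calls of LSR, MARVELD3, OCLN, TJP3 and F11R were made in every omission of 1 library. With the 2 libraries set apart restored, these 5 genes and CLDN1 were called lower, against 21.1% of all genes, and CLDN1 then changed by -1.05 ± 0.31 (adjusted p = 0.0183). In SiHa pH 7.4 replicates 6 and 7, LSR was at 3545 and 3210, near the other pH 7.4 libraries, while CLDN1 was at 2261 and 3529 and OCLN at 286 and 437, OCLN being above all 3 kept pH 7.4 libraries. F11R changed by -0.55 with an adjusted p of 0.148 when replicate 1 was the lone pH 7.4 library. CDH1 (E-cadherin, the adhesion protein of the neighbouring adherens junction) was at 232, 133, 134, 167 and 197 in SiHa at pH 6.5, against 1658, 1373 and 1772 at pH 7.4. The summed level of 12 mesenchymal markers ran from 5348 to 14853 at pH 6.5 and from 10467 to 12259 at pH 7.4, with 6 to 8 of the 12 at 10 or more at pH 6.5 and 8 to 12 at pH 7.4, and VIM was at 0 in replicates 1 and 6 at pH 6.5. Squamous markers summed to 22357 to 86952 at pH 6.5 and 69564 to 76907 at pH 7.4. The part of these shifts in the fall of the junction genes was not tested.

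**Figure D1:**
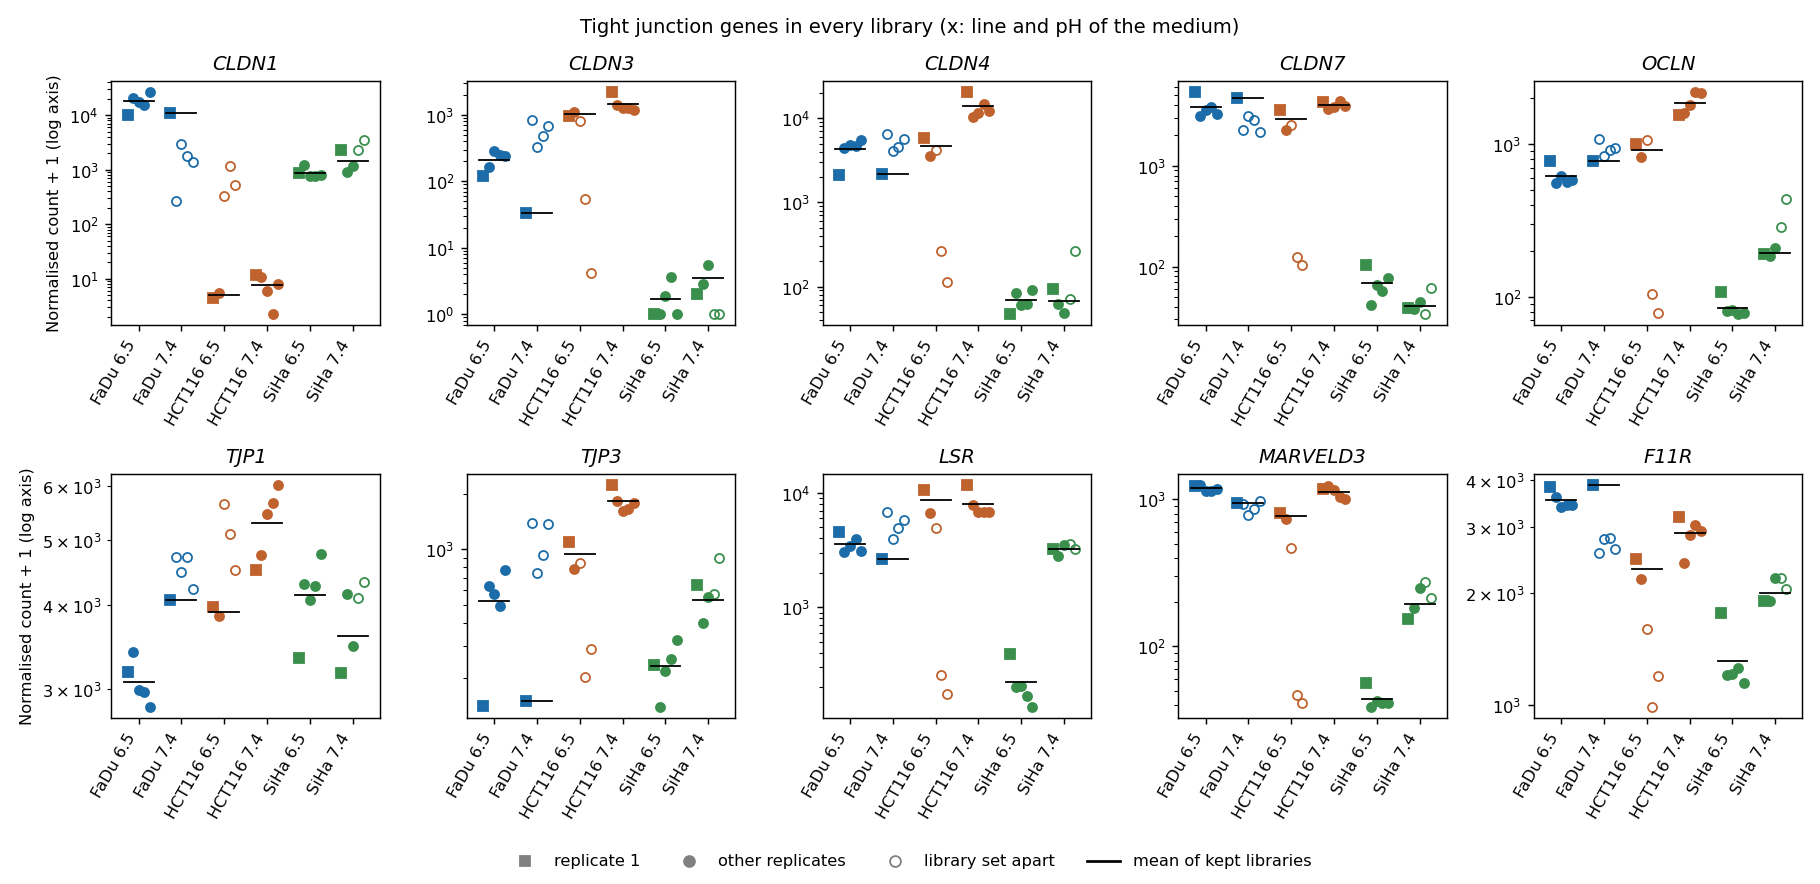
Normalised counts plus 1 of the 10 tight junction genes (log axis) in each library, with pH 6.5 left of pH 7.4 for FaDu, HCT116 and SiHa. Filled squares are replicate 1, filled circles the other kept libraries, open circles the 9 libraries set apart, and bars the means of kept libraries (1 library for FaDu at pH 7.4). SiHa LSR lies between 134 and 394 at pH 6.5 and between 2826 and 3526 at pH 7.4.

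In HCT116, CLDN4, OCLN, TJP3, MARVELD3 and TJP1 were lower at pH 6.5, while LSR, the gene that moved most in SiHa, was near its level at pH 7.4. Among the 9 members that passed the filter, 5 were called lower, against 11.1% of all 18885 genes tested, and 0 were called higher, against 9.11%. The count higher was also 0 at an unadjusted limma p under 0.05, by edgeR and by DESeq2. The count lower at these rules was 8, 4 and 5 in turn. The shares over all genes at these rules are not given here, so these counts are not read against them. The median log2 change was -0.49 over the 9 and -0.01 over all genes. 2 libraries at pH 6.5 carried the comparison.

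CLDN4 had 5886 and 3576 normalised counts in HCT116 at pH 6.5 (replicates 1 and 3), against 20467, 10371, 11682, 14972 and 12123 at pH 7.4 (replicates 1, 3, 5, 6 and 7). Both acidic libraries lay below all neutral ones, and replicate 1 was the higher library in each group. CLDN4 fell by 1.56 ± 0.25 on the log2 scale (adjusted p = 0.00105), 2.94-fold. CLDN7 had 3572 and 2271 at pH 6.5, against 4256, 3656, 3788, 4429 and 3941 at pH 7.4. These groups did not overlap either, yet the change of -0.49 ± 0.16 had an adjusted p of 0.0549. CLDN3 had 971 and 1092 at pH 6.5, against 2191, 1416, 1264, 1282 and 1198 at pH 7.4 (-0.48 ± 0.21, adjusted p = 0.133). CLDN1 stood at 3.43 and 4.56 at pH 6.5 and between 1.23 and 10.6 at pH 7.4, too low for the test.

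The strand protein OCLN had 996 and 821 normalised counts in HCT116 at pH 6.5, against 1544, 1605, 1793, 2182 and 2160 at pH 7.4, and fell by 1.02 ± 0.17 on the log2 scale (adjusted p = 0.00137). MARVELD3 had 814 and 736 at pH 6.5, against 1178, 1240, 1161, 1044 and 1013 at pH 7.4, and fell by 0.54 ± 0.14 (adjusted p = 0.0167). Neither gene overlapped between the groups. The scaffold TJP3 had 1098 and 782 at pH 6.5, against 2235, 1830, 1606, 1653 and 1782 at pH 7.4, and fell by 0.96 ± 0.17 (adjusted p = 0.00202), though its adjusted p was 0.115 in 1 fit that shared the spread over all lines. TJP1 had 3971 and 3848 at pH 6.5, against 4509, 4746, 5465, 5672 and 6034 at pH 7.4. Its fall of 0.43 ± 0.14 (adjusted p = 0.0458) was past the threshold in 1 of 7 omissions of a library, and its adjusted p was 0.0636 by edgeR.

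LSR had 10639 and 6685 normalised counts in HCT116 at pH 6.5, against 11774, 7877, 6873, 6809 and 6852 at pH 7.4. Replicate 1 was high in both groups, the values overlapped, and the change was 0.10 ± 0.23 (adjusted p = 0.785). F11R had 2454 and 2174 at pH 6.5, against 3182, 2407, 2853, 3040 and 2924 at pH 7.4 (-0.31 ± 0.14, adjusted p = 0.127). 7 of the 9 genes did not overlap between the groups with pH 6.5 the lower, against 18.7% of all genes. Without pH 6.5 replicate 3, 1 library was left at pH 6.5 and fewer members were called. The share of all genes called in that fit is not given here, so the drop cannot be read on its own. Over the omissions of 1 library, the log2 change ran from -0.61 to -0.47 for MARVELD3 and from -0.48 to -0.38 for TJP1. The MARVELD3 call was lost in 1 of these 7 omissions. With replicate 1 left out of both groups, which leaves 1 library at pH 6.5 that is assumed to vary like the others, 6 of 9 members were called lower (the 5 above and CLDN7, at -0.80 ± 0.13 with an adjusted p of 0.00389), against 11.6% of all genes. In SiHa the same omission left LSR, MARVELD3, OCLN, TJP3 and F11R called lower, 5 of 9 against 12.7% of all genes.

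With all 5 labelled HCT116 libraries at pH 6.5, 3 members were called lower (CLDN4 at -3.47, TJP3 at -1.77 and F11R at -0.86 on the log2 scale), against 9.62% of all genes. The 3 added libraries carried SiHa-restricted genes, and they differed among themselves. Replicate 5 held LSR at 4959, CLDN4 at 4184 and OCLN at 1057. Replicates 6 and 7 held LSR at 258 and 173, CLDN4 at 267 and 112, OCLN at 103 and 76.8, and MARVELD3 at 45.5 and 40.4. In SiHa at pH 6.5 LSR spanned 134 to 394 and MARVELD3 37.8 to 55.3, and in HCT116 at pH 6.5 the kept libraries held MARVELD3 at 814 and 736.

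**Figure D2:**
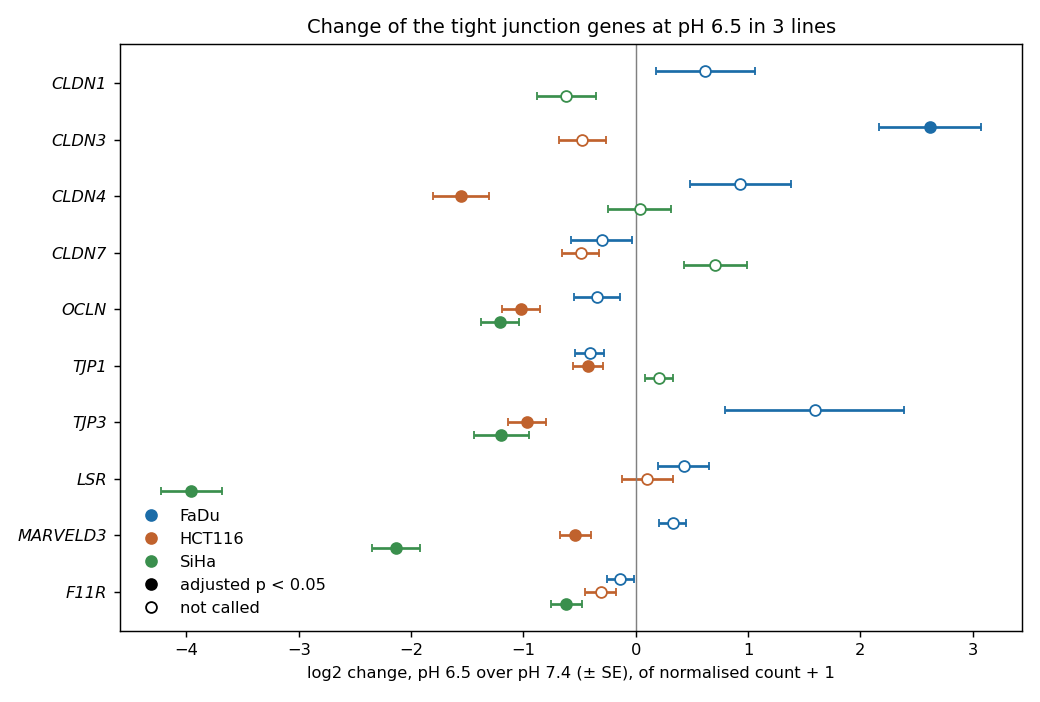
Log2 change of each tight junction gene at pH 6.5 over pH 7.4 (points, with SE bars) in FaDu (5 against 1 library), HCT116 (2 against 5) and SiHa (5 against 3), kept libraries. Filled points passed limma's adjusted p of 0.05, and genes below the filter have no point. LSR is at -3.96 in SiHa and at 0.10 in HCT116.

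In FaDu the claudin CLDN3 was higher at pH 6.5, and no other member passed the test. FaDu had 1 kept library at pH 7.4, so its spread is assumed to be that of the 5 libraries at pH 6.5. 1 of 10 members was called higher, against 4.24% of all 19170 genes tested, and 0 lower, against 3.12%. The count lower was 1 at an unadjusted limma p under 0.05 and 0 by edgeR and by DESeq2. The shares over all genes at these other rules are not given here. The median log2 change was 0.38 over the 10 genes and -0.01 over all genes. Of the 10, 6 did not overlap between the groups, against 57.1% of all genes.

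CLDN3 had 118, 164, 283, 252 and 239 normalised counts in FaDu at pH 6.5 (replicates 1 to 5), against 31.9 at pH 7.4. Every acidic library was above the neutral one, by 2.62 ± 0.46 on the log2 scale (adjusted p = 0.0241). The call was lost in 4 of 5 omissions, those of pH 6.5 replicates 2 to 5, with an adjusted p up to 0.0758. CLDN4 had 2132, 4478, 4812, 4716 and 5495 at pH 6.5, against 2164 at pH 7.4, and CLDN1 had 9907, 20836, 17491, 15237 and 26498 at pH 6.5, against 11113 at pH 7.4. In both genes replicate 1 at pH 6.5 was close to replicate 1 at pH 7.4 and the other 4 were higher. TJP3 showed the same split, with 141, 627, 567.8, 491 and 771 at pH 6.5, against 149 at pH 7.4.

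The other FaDu members moved less. CLDN7 had 5376, 3113, 3599, 3858 and 3265 at pH 6.5, against 4653 at pH 7.4, and OCLN had 778, 551, 618, 559 and 582 at pH 6.5, against 778 at pH 7.4. TJP1 had 3179, 3400.2, 2988, 2970.3 and 2823 at pH 6.5, all below the 4072 at pH 7.4 (-0.41 ± 0.13, adjusted p = 0.0972). LSR had 4535, 3022, 3428, 3952 and 3079 at pH 6.5, all above the 2648 at pH 7.4 (0.43 ± 0.22, adjusted p = 0.259). MARVELD3 spanned 1132 to 1258 at pH 6.5 and was at 945 at pH 7.4. F11R spanned 3384 to 3849 at pH 6.5 and was at 3892 at pH 7.4.

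FaDu pH 6.5 replicate 1 stood apart from the other 4 acidic libraries, and the calls turned on it. VIM was at 44.8 in it and at 36.2 in the pH 7.4 library, against 2.08 to 4.42 in pH 6.5 replicates 2 to 5. Without replicate 1 at pH 6.5, CLDN1 (0.82), CLDN3 (2.81), CLDN4 (1.17), TJP3 (2.01) and MARVELD3 (0.32, all log2) were called higher, 5 of 10 against 17.8% of all genes. CLDN7 (-0.43), OCLN (-0.43) and TJP1 (-0.42) were called lower, 3 of 10 against 18.7%. LSR changed by 0.34 (adjusted p = 0.112) and F11R by -0.17 (adjusted p = 0.139). These 4 libraries were then set against 1 library that is itself replicate 1, so pH and replicate number cannot be told apart in these calls. Within the replicate 1 pair the log2 ratio of pH 6.5 to pH 7.4 was -0.17 for CLDN1, -0.02 for CLDN4, -0.09 for TJP3 and 1.85 for CLDN3. With all libraries as labelled, CLDN1 (3.21) and MARVELD3 (0.40) were called higher, against 24.0% of all genes, and OCLN (-0.56) and TJP1 (-0.53) lower, against 22.3%. The 4 libraries added at pH 7.4 carried HCT116-restricted genes and held CLDN1 at 262 to 2910.4 and CLDN3 at 325 to 826. CLDN3 then changed by -0.62 (adjusted p = 0.519), so its direction depended on these libraries.

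**Figure D3:**
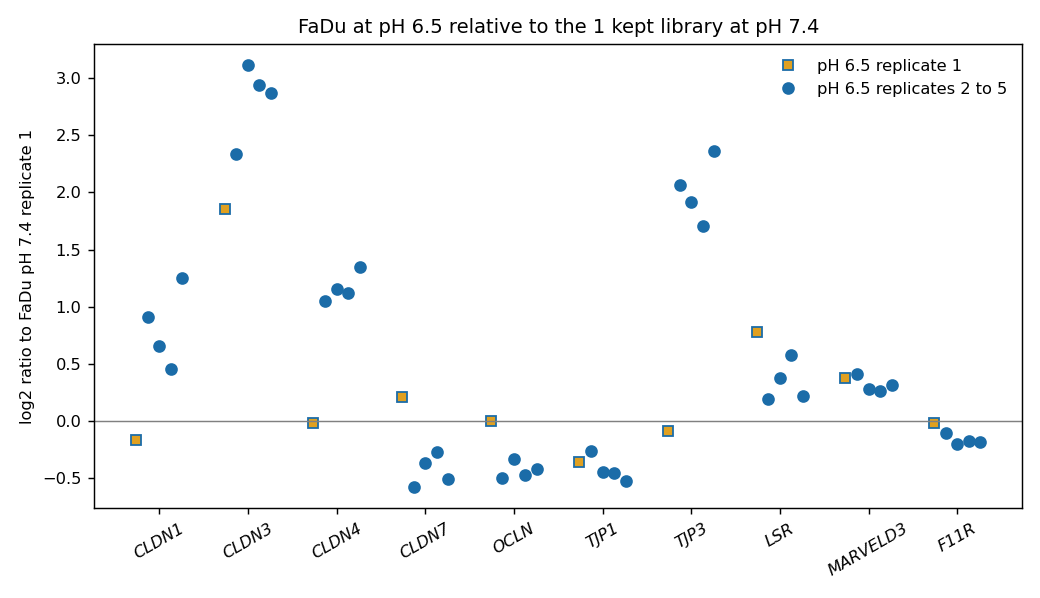
Log2 ratio of each FaDu library at pH 6.5 to the 1 kept FaDu library at pH 7.4, for the 10 tight junction genes. The square is pH 6.5 replicate 1 and the circles are replicates 2 to 5. Replicate 1 is near 0 for CLDN4, OCLN, TJP3 and F11R, and CLDN3 is above 0 in all 5 libraries.

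For most of these genes the pH effect differed between the lines in the fit without a replicate block. In 1 limma fit over the 21 libraries the F-test of the interaction was past the threshold for 8 of 10 members, against 33.1% of 22127 genes. With the replicate number as a block, 2 of 10 passed, against 949 of 22127 genes. They were LSR (adjusted p = 0.0206) and TJP3 (0.0488). The adjusted p was 0.0594 for CLDN3, 0.0664 for MARVELD3 and 0.166 for CLDN4. The block draws each pH effect from replicate numbers kept at both pH values, in FaDu replicate 1 alone, and leaves few libraries to estimate the spread. Without the block, the difference between HCT116 and SiHa does not involve the lone FaDu library. The pH effect on LSR was 4.06 ± 0.38 higher in HCT116 than in SiHa on the log2 scale (adjusted p = 2.54e-07), and that on MARVELD3 was 1.59 ± 0.22 higher (adjusted p = 2.36e-05). In the opposite direction, the effect in HCT116 minus that in SiHa was -1.59 ± 0.44 for CLDN4 (adjusted p = 0.0119), -1.20 ± 0.33 for CLDN7 (adjusted p = 0.0122) and -0.63 ± 0.18 for TJP1 (adjusted p = 0.0131). Thus 5 of 10 members passed this difference, against 24.5% of all genes. For OCLN it was 0.18 ± 0.23 (adjusted p = 0.594) and for TJP3 0.23 ± 0.56 (adjusted p = 0.803), genes called lower in both lines. CLDN3, the gene called in FaDu, gave an effect 3.10 ± 0.76 higher in FaDu than in HCT116 (adjusted p = 0.00824). FaDu minus SiHa was 4.38 ± 0.45 for LSR (adjusted p = 2.98e-06) and 2.79 ± 0.66 for TJP3 (adjusted p = 0.00732), and all 3 of these differences rest on the lone FaDu library. CLDN1 (adjusted p of the F-test 0.36) and F11R (0.152) were not past the threshold.

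The 10 genes were set at different levels in the 3 lines. CLDN3, CLDN4, CLDN7, OCLN and MARVELD3 were lower in every kept SiHa library than in every kept FaDu and HCT116 library, 5 of 10 members against 9.77% of all genes. CLDN1 was highest in FaDu, lower in SiHa and near the level of 3 reads in HCT116, without overlap between lines. CLDN3 ran from HCT116 at the top (1031 ± 86 at pH 6.5 and 1470.4 ± 411 at pH 7.4, SD, n = 2 and 5) over FaDu to SiHa, also without overlap between lines. CLDN4 averaged 4731 ± 1634 at pH 6.5 and 13923 ± 4025 at pH 7.4 in HCT116, and the HCT116 libraries at pH 6.5 overlapped those of FaDu at pH 6.5. For CLDN7, both HCT116 groups overlapped FaDu at pH 6.5.

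LSR in HCT116 lay above all FaDu and SiHa libraries. In SiHa at pH 7.4 it averaged 3205 ± 354 (SD, n = 3), and these libraries overlapped FaDu at pH 6.5, whereas every SiHa library at pH 6.5 was below every library of the other lines. MARVELD3 in FaDu at pH 6.5 (1188 ± 54, n = 5) overlapped HCT116 at pH 7.4 (1127 ± 95, n = 5). F11R ran from FaDu over HCT116 to SiHa, with overlap only between the HCT116 groups and between HCT116 at pH 6.5 and SiHa at pH 7.4. For TJP1 the group means ran from 3072 to 5285, and of the neighbouring groups only FaDu at pH 7.4 and HCT116 at pH 6.5 did not overlap. TJP3 of FaDu at pH 6.5 (141 to 771) overlapped both SiHa groups, and HCT116 lay above FaDu and SiHa.

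Other genes of the junction and of epithelial identity were read from lists of 18 further claudins, 34 junction proteins and 19 epithelial regulators and proteases that were matched in the table. In SiHa at pH 6.5, 0 of 8 tested claudins were called higher (0 also at an unadjusted limma p under 0.05, by edgeR and by DESeq2) and 1 lower, 6 of 29 junction proteins higher and 8 lower, and 3 of 16 regulators and proteases higher and 10 lower, where 15.0% of all genes were called higher and 16.2% lower. The shares over all genes at the unadjusted p, by edgeR and by DESeq2 are not given here. The median log2 changes of these lists were -0.10, -0.11 and -0.72, against -0.01 over all genes. The largest falls were those of ELF3, an epithelial ETS factor, at 4.82 ± 5.66 normalised counts at pH 6.5 and 122 ± 32 at pH 7.4 (SD, n = 5 and 3, log2 change -4.77), and of CRB3, an apical polarity protein, at 2.72 ± 2.09 at pH 6.5 and 73.8 ± 5.0 at pH 7.4 (-4.57). Both were near the level of 3 reads at pH 6.5. ST14, the membrane protease matriptase, was at 19.4 ± 12.9 at pH 6.5 and 203 ± 58 at pH 7.4 (-3.52), and OVOL2, a zinc finger factor of epithelial cells, at 8.99 ± 2.2 at pH 6.5 and 99.1 ± 23.7 at pH 7.4 (-3.32).

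The largest rises in SiHa were those of AMOT (angiomotin, a polarity scaffold) at 2.56, the adhesion protein JAM2 at 1.32, and the repressors of epithelial genes ZEB1 at 1.12 and SNAI1 at 0.93 on the log2 scale. ZEB1 was at 1169 ± 174 at pH 6.5 and 541 ± 107 at pH 7.4, and SNAI1 at 1363 ± 330 at pH 6.5 and 705 ± 116 at pH 7.4 (SD, n = 5 and 3). AMOT, ZEB1 and SNAI1 were past the threshold in every omission of 1 library, and JAM2 was not in 2 of 8. Other repressors of this kind were not all called in 1 direction. Chosen after their values were seen, TWIST1 was called higher (0.38, adjusted p = 0.027), ZEB2 (-1.38, adjusted p = 0.0011) and TWIST2 (-0.63, adjusted p = 0.00903) were called lower, and SNAI2 was not called (-0.05, adjusted p = 0.778). Chosen in the same way, GRHL2, an activator of epithelial genes, did not exceed 1.79 in SiHa at pH 6.5 or 1.02 in kept SiHa libraries at pH 7.4.

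In HCT116 at pH 6.5, 1 of 9 tested claudins was called higher and 2 lower, 2 of 32 junction proteins higher and 7 lower, and 2 of 17 regulators and proteases higher and 5 lower, where 9.11% of all genes were called higher and 11.1% lower, with medians of -0.27, -0.31 and -0.33 against -0.01 over all genes. The largest rises were those of ZEB1 (166 ± 37 at pH 6.5 and 37.2 ± 17.2 at pH 7.4, SD, n = 2 and 5, log2 change 2.22), the polarity protein PARD6A (1.40), the mesenchymal factor TWIST1 (1.24) and the adhesion protein JAM3 (1.23). The largest falls were those of CLDN9 (-2.98), GRHL3 (90.2 ± 17.6 at pH 6.5 and 551 ± 180 at pH 7.4, -2.54), a grainyhead-like factor of barrier epithelia, ELF3 (1041 ± 947 at pH 6.5 and 4216 ± 481 at pH 7.4, -2.39) and CLDN18 (-1.67). CLDN9 averaged 5.15 ± 4.05 at pH 6.5 and 43.8 ± 13.3 at pH 7.4, and CLDN18 3.42 ± 3.22 at pH 6.5 and 11.4 ± 3.3 at pH 7.4. The calls of TWIST1 and CLDN18 were lost in 5 of 7 omissions of a library, and those of PARD6A and JAM3 in 1 of 7, with an adjusted p up to 0.0672 and 0.166. With all libraries as labelled, PARD6A (0.63, adjusted p = 0.205) and JAM3 (0.59, adjusted p = 0.264) were not called.

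In FaDu, 1 of 7 tested claudins was called higher and 0 lower, 0 of 33 junction proteins higher and 1 lower, and 2 of 19 regulators and proteases higher and 0 lower, where 4.24% of all genes were called higher and 3.12% lower, with medians of -0.06, -0.03 and -0.20 against -0.01 over all genes. The genes called were CLDN11 (73.0 ± 11.97 in 5 libraries at pH 6.5, against 23.1 in the pH 7.4 library, log2 change 1.61), GRHL1 (1.14), OVOL1 (0.97) and ARHGEF2 (-0.89). Each of these 4 calls was lost in 4 of 5 omissions of a library. At an unadjusted limma p under 0.05, 1 claudin was higher and 0 lower, and 4 junction proteins higher and 4 lower. Of the regulators and proteases, 5 were higher and 7 lower at that p. By edgeR, 1 claudin was higher and 0 lower, 0 junction proteins higher and 1 lower, and 0 regulators higher and 2 lower. By DESeq2 these counts were 1 and 0, 2 and 3, and 5 and 6. The shares over all genes at these rules are not given here. Of the genes named here from the 3 lists, ZEB1, TWIST1 and ELF3 were called in the same direction in SiHa and in HCT116, and PARD6A was called lower in SiHa (-1.71, adjusted p = 0.000357) and higher in HCT116 (adjusted p = 0.00342).

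**Figure D4:**
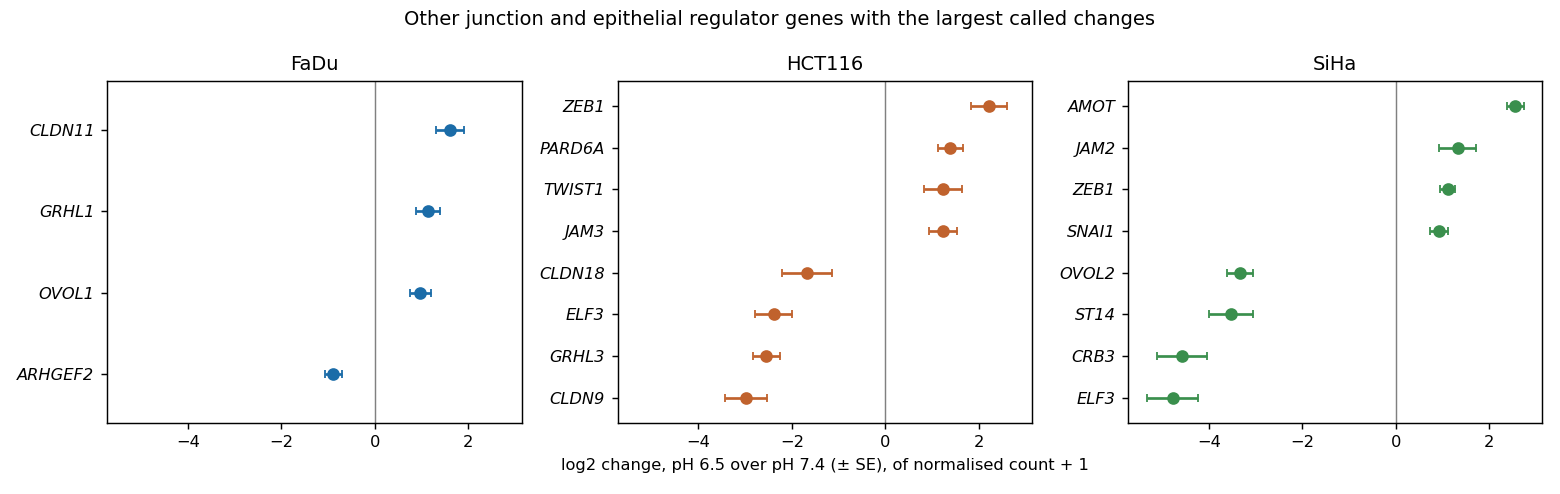
Log2 change at pH 6.5 over pH 7.4 (points, with SE bars) of the genes with the largest called changes among other claudins, junction proteins, epithelial regulators and proteases, up to 4 per direction in each line. ZEB1 is higher (2.22 in HCT116, 1.12 in SiHa) and ELF3 lower (-2.39 and -4.77) in both lines.

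The mean of the 10 genes, each centred and scaled over the 21 libraries, was set against 14906 genes, the members included. The 10 genes did not all share 1 profile. Over their 45 pairs the Pearson r ran from -0.767 (CLDN1 and TJP1) to 0.968, with a median of 0.721, and 35 pairs were positive. A gene close to the mean need therefore not follow each member. Only genes that are not members are named here. The closest were SCNN1A, a subunit of the epithelial sodium channel (Pearson r = 0.986), EPCAM, an epithelial adhesion protein (0.985), TIAL1, an RNA-binding protein (0.984), CAMSAP3, which anchors microtubules in epithelial cells (0.984), and GRB14, an adaptor of the insulin receptor (0.984). These libraries fall into 3 lines and share that source, so the values describe mainly how genes differ by line. EPCAM averaged 72.2 in SiHa at pH 6.5 and 492.8 at pH 7.4, and 8900 in HCT116 at pH 6.5 and 13572 at pH 7.4, and was called lower in both (-2.85 and -0.61 on the log2 scale). SCNN1A averaged 98.5 at pH 6.5 and 203 at pH 7.4 in SiHa, and 1762 at pH 6.5 and 3261 at pH 7.4 in HCT116.

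Some reads of 3 members could belong to other genes. In the GENCODE annotation, whose build differs from that of the files, 16.6% of the exon bases of MARVELD3 overlapped PHLPP2 on the opposite strand, 36.6% of those of F11R overlapped AL591806.3 on the same strand, and 10.8% of those of CLDN7 overlapped AC003688.1 on the same strand. The strand setting of the counts is not given in the sources used here, so reads of these pairs cannot be told apart.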

How the data were processed

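RNA was sequenced in 30 libraries. Per the submitters' processing notes, the authors used DESeq2 1.22.2, STAR 2.6.1d, Trimmomatic 0.38, FastQC and bcl2fastq 2.20 with the build GRCh37. The read counter, strandedness and gene models were in each case not given in the sources used here. Each deposited value is a depth-scaled signal for 1 gene and library. Dividing a library by its smallest nonzero value gave whole numbers, with a tolerance of 0.01, for 100% of values, and these reads were used in edgeR and DESeq2. The deposited table lists Ensembl identifiers, of which 35466 were matched to a symbol and 2656 were not. The limit of 3 reads for a count of 0 allows for counting error alone, because reads had no molecular identifiers.

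Within lines, limma (with its intensity trend) set log2(normalised count + 1), a signal that was scaled by the authors and logged here with a pseudocount of 1, at pH 6.5 against that at pH 7.4. Genes entered if either group averaged 10 or more. Calls are 2-sided Benjamini-Hochberg adjusted p under 0.05 over all genes tested, and log2 changes understate those of low genes. The interaction of line and pH was tested in 1 limma fit over 21 libraries. The fits were tested on simulated data. The 10 genes, the wider lists, the libraries set apart and the tests were chosen with earlier results of these data known.

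Genes were named by rule: all 10 members, in each line the 4 genes called higher and the 4 called lower with the largest log2 change in the wider lists, the markers VIM, CDH1 and CDH2, and the 5 genes most like the members. CLDN22 and CLDN25 were not analysed here. Sequences and names came from RefSeq GRCh38.p14 and GENCODE. Alternatives were other pseudocounts and filters, edgeR, DESeq2, a shared fit, a replicate block, all libraries as labelled and each library left out in turn. 2 more were chosen after seeing the data, SiHa pH 7.4 replicate 1 alone and both replicate 1 libraries left out. Tools were limma 3.58.1, edgeR 4.0.16 and DESeq2 1.42.0 in R 4.3.3, and pandas 2.3.3, numpy 2.4.6, scipy 1.17.1 and matplotlib 3.10.9 in Python 3.11.15.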

Additional observations from a re-analysis of the deposited data

Results flagged for a closer look

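Of 30 sets of values (10 genes in each of the 3 groups with 5 kept libraries), 7 held a library far from the others. For a single set chance alone gives about 1 in 20. The 10 genes were read in the same libraries, so the 30 sets are not independent and no test is drawn from this rate. In each of the 7 the far library was replicate 1. Its gap to the nearest library, as a share of the group's range, was 0.784 for CLDN4 and 0.734 for TJP3 in FaDu at pH 6.5, where it was the lowest, 0.817 for OCLN, 0.77 for MARVELD3 and 0.78 for F11R in SiHa at pH 6.5, where it was the highest, and 0.724 for CLDN3 and 0.734 for LSR in HCT116 at pH 7.4, where it was the highest. With both replicate 1 libraries left out, LSR (-4.17), MARVELD3 (-2.38), OCLN (-1.30), TJP3 (-1.06) and F11R (-0.76, all log2) were called lower in SiHa.

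The pH effect differed between the lines, by the limma F-test of the interaction without a replicate block, for LSR (adjusted p = 1.2e-07), MARVELD3 (1.11e-06), CLDN3 (0.00176), CLDN4 (0.00329), TJP3 (0.00735), TJP1 (0.0144), CLDN7 (0.0173) and OCLN (0.0448). OCLN was close to the threshold. It was not past it with a pseudocount of 10, with no filter, with the replicate block or in several omissions of 1 library. By the same F-test with all libraries as labelled, OCLN (adjusted p = 0.100), CLDN3 (0.248) and TJP3 (0.388) were not past it. For OCLN, HCT116 minus SiHa was 0.18 ± 0.23 on the log2 scale. The OCLN differences that involve FaDu rest on its lone kept neutral library. LSR changed by -3.96 in SiHa, 0.10 in HCT116 and 0.43 in FaDu on the log2 scale. CLDN4 changed by 0.04 in SiHa, -1.56 in HCT116 and 0.93 in FaDu.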

How the results depend on the processing

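The replicate numbers were not shown to pair the samples: the correlation of deviations ran from 0.0478 to 0.316 over 3 SiHa pairs, each best with its own number, and from 0.0553 to 0.173 over 2 HCT116 pairs. With the replicate block, 2 members (LSR and TJP3) and not 8 differed between lines, where 949 and not 7327 of all 22127 genes did. The block draws each pH effect from numbers kept at both pH values: replicate 1 in FaDu, 2 HCT116 pairs and 3 SiHa pairs. Few libraries are then left to estimate the spread, and what lowered the counts was not tested. With the replicate block and all libraries as labelled, members called were 4 higher and 3 lower in FaDu, 1 lower in HCT116 and 1 higher in SiHa, and wider-list genes 19 higher and 16 lower in FaDu and 2 higher and 5 lower in HCT116. Not every direction is listed, so an unlisted one does not mean that no gene was called. The share of all genes called in this fit is not given here, so these counts are not read against it.

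Against 1 member higher and 0 lower in FaDu, counts were 2 and 2 as labelled and 0 higher with no filter. Against 3 wider genes higher and 1 lower there, they were 21 and 17 as labelled, 1 higher with no filter, 1 and 3 by edgeR, 8 and 9 by DESeq2, and 3, 2 and 6 lower with a pseudocount of 10, a mean of at least 50 and 1 fit over all lines. In HCT116, 5 members lower became 3 as labelled, and 5 wider genes higher became 8 in 1 fit over all lines and 2 without both replicate 1 libraries (14 were lower). In SiHa, 0 members higher became 1 by DESeq2 and 1 in 1 fit over all lines, and 9 wider genes higher and 19 lower became 2 and 11 with replicate 1 as the lone pH 7.4 library.

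With each library left out in turn, members called ranged from 0 to 5 higher and 0 to 3 lower in FaDu, 0 higher and 3 to 5 lower in HCT116, and 0 to 1 higher and 5 to 6 lower in SiHa. Wider genes ranged from 0 to 14 higher and 0 to 12 lower in FaDu, 1 to 7 and 12 to 18 in HCT116, and 3 to 9 and 17 to 20 in SiHa, and members that differed between lines from 6 to 9. The share of all genes called in each of these fits is not given here, so the ranges are not read against it. Directions turned for uncalled values and for CLDN3. As labelled, with and without the block, FaDu gave CLDN3 -0.62, CLDN4 -0.062, CLDN7 0.38, TJP3 -0.67, LSR -0.37 and F11R 0.29. HCT116 LSR was -2.17 as labelled, -0.19 with the block, -0.085 without both replicate 1 libraries and -0.23 to 0.44 with 1 library left out. SiHa CLDN4 was -0.39 as labelled, -0.067 with the block, -0.48 with replicate 1 as the lone pH 7.4 library and -0.18 to 0.30 with 1 library left out. The libraries set apart enter the values as labelled by construction, and beyond that the cause was not tested. CLDN1 in HCT116 and CLDN3 in SiHa were too low at this depth for a change to be detectable.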
